A study of Mus musculus with 13 samples.

Results

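The genes described here are the mouse UDP-glucuronosyltransferases (UGT), glutathione S-transferases (GST) and cytosolic sulfotransferases (SULT), the main conjugating enzymes of hepatic phase II metabolism. They were taken from a whole-liver RNA-seq count table by a rule on gene symbols: every protein-coding gene of the Ugt1a, Ugt2a, Ugt2b, Ugt3a, Gst (alpha, kappa, mu, pi, theta, omega and zeta) and Sult families with at least 10 reads summed over the 13 libraries. The rule gave 58 members among 22048 genes, of which 19 were UGT, 21 GST and 18 SULT genes. A further 6 genes with matching symbols had fewer than 10 reads. A low-count filter applied to the whole table then left 53 members for testing (17 UGT, 20 GST and 16 SULT). The 5 members not tested were Gsto2, Sult2b1, Sult4a1, Ugt1a2 and Ugt1a8.

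Phase II enzymes make lipophilic compounds water-soluble by attaching a polar group to them. UGT enzymes transfer glucuronic acid from UDP-glucuronic acid to bilirubin, steroids, bile acids and drugs in the endoplasmic reticulum, SULT enzymes transfer sulfate from PAPS to steroids, phenols and bile acids in the cytosol, and GST enzymes join glutathione to electrophiles. Hepatocytes are the main site of all these reactions in the liver, several of the genes differ between male and female mice, and some are graded along the lobule from the portal to the central vein.

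The study compared 3 groups of whole mouse livers. There were 6 control livers that were not depleted of hepatic stellate cells (3 male, replicates 1, 2 and 6; 3 female, replicates 3, 4 and 5), 4 livers depleted of these cells (replicates 1, 2 and 4 female, replicate 3 male) and 3 livers collected 72 h after partial hepatectomy, in which some of the liver is cut away (replicates 1 and 2 male, replicate 3 female). Stellate cells line the hepatic sinusoids as pericytes and store vitamin A. The strain, the age, the method of depletion and the extent of the resection are not given in the sources used here, nor is any statement that samples came from separate animals, so p-values measure the spread between these samples.

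Library totals were 35360991 to 51008737 counts. In the depleted livers all 11 stellate cell markers tested were lower than in controls, and their summed level was 15.4 to 19.0 CPM (reads scaled to a common library size after TMM normalisation) in replicates 1 to 3 and 74.0 CPM in replicate 4, against 301.5 to 791.3 CPM in controls. Colec10, Colec11, Des and Ntm were at 0 in at least 1 depleted liver. Markers of blood-derived cells rose: 8 of 8 monocyte and neutrophil markers tested and 5 of 5 T cell markers were higher in depleted livers, with summed levels of 636.6 to 1086 CPM against 15.99 to 120.9 CPM in controls for the first list and 28.2 to 68.8 CPM against 2.02 to 3.35 CPM for the second. All 4 B cell markers (18.7 to 31.3 CPM against 2.52 to 5.31 CPM) and 3 of 6 Kupffer cell markers (569.5 to 1288 CPM against 52.2 to 464.9 CPM) were higher too. The mean log2 CPM of the Kupffer cell markers overlapped, at 4.98 in depleted replicate 1 and 5.61 in control replicate 3. Of 6 endothelial markers 1 was higher, with overlapping sums (162.6 to 348.3 CPM against 69.4 to 333.2 CPM). Over all genes, 18.9% were higher and 15% lower in depleted livers. None of the 7 hepatocyte markers was called in either comparison with control, whereas 7 of 8 pericentral hepatocyte markers were lower in depleted livers (summed level 1385 to 2697 CPM against 11680 to 15500 CPM in controls). Of 7 periportal markers, 1 was higher and 2 were lower. In whole liver, fewer cells of a type and less RNA per cell cannot be told apart. After hepatectomy all 4 proliferation markers tested were higher than in controls (summed level 49.4 to 328.4 CPM against 2.01 to 32.8 CPM), as were 4 of 8 monocyte and neutrophil markers (57.96 to 199.7 CPM) and 2 of 6 cholangiocyte markers (96.2 to 110.3 CPM against 62.5 to 106.9 CPM), while 1 of 8 pericentral markers was lower and no stellate marker was called. Over all genes, 6.06% were higher and 2.36% lower after hepatectomy. In depleted livers 2 of 4 proliferation markers were higher (summed level 36.7 to 96.2 CPM). The part that cell composition, proliferation or zonation had in the results below was not tested. Control replicate 6 and hepatectomised replicate 2 had the lowest Kupffer cell sums (52.2 and 58.3 CPM) and endothelial sums (69.4 and 69.8 CPM) of all livers, against 242.8 CPM or more and 162.6 CPM or more in the others. Without control replicate 6, 20 members were called in depleted livers (32.9% of all genes) and 2 after hepatectomy (7.09%), and without hepatectomised replicate 2, 1 was called after hepatectomy (3.43%). Control replicate 2 and depleted replicate 4 stood apart in their GSTP transcripts, as described below. Without both, 11 rather than 5 members were called between depleted and hepatectomised livers (27% against 23.4% of all genes) and 5 rather than 3 after hepatectomy (6.55% against 8.42% of all genes).

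As a group, the conjugating enzymes took a smaller share of the transcriptome in both kinds of altered liver. The 58 members summed to 10520, 12510 and 17030 CPM (lowest, median and highest of 6) in controls, to 6701 to 9493 CPM in the 4 depleted livers and had a mean of 9437 CPM in the 3 hepatectomised livers. No depleted and no hepatectomised liver reached the lowest control. The mean sum was 62.0% of the control mean in depleted livers and 72.9% in hepatectomised livers in TMM-scaled CPM. As a plain share of all reads, the members held 1.30% in controls, 0.875% in depleted and 0.821% in hepatectomised livers, or 67.2% and 63.1% of the control mean, so the order of the altered groups turned with the scaling. Control replicate 6 had the highest sum, and without it the CPM ratios were 66.2% and 77.9%. The UGT sum was 5010 ± 962 CPM (SD, n = 6) in controls, and its mean was 54.9% of that in depleted and 62.1% in hepatectomised livers (59.4% and 53.7% as shares of all reads, again in the other order). The GST sum was 6167 ± 1536 CPM (SD, n = 6) in controls and its means in the other groups were 64.8% and 83.5% of that. As shares of all reads the GST means were 70.8% in depleted and 72.4% in hepatectomised livers. The SULT sum was 1764 ± 132 CPM (SD, n = 6) in controls, with means of 72.4% and 66.6% of that value. As shares of all reads the SULT means fell to 77% in depleted and 57.2% in hepatectomised livers. Sult2a8 carried this fall: the other 17 SULT genes summed to a mean of 744.3 CPM in controls, 1106 CPM in depleted and 858.9 CPM in hepatectomised livers, with overlapping ranges (343.1 to 1212, 651.4 to 1703 and 626.2 to 1198 CPM). In depleted livers 6 of the 16 tested SULT genes had an estimate below 0 and the median log2 fold change was 0.48, against 17 of 20 GST genes (median -0.45) and 12 of 17 UGT genes (median -0.63). These means pool the sexes, which are mixed unequally in the groups. Among females alone the depleted mean was 71.8% of control for all members (6701 to 9493 CPM against 10520 to 11700 CPM), 65.1% for UGT, 75.1% for GST and 77.5% for SULT (n = 3 and 3).

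**Figure D1:**
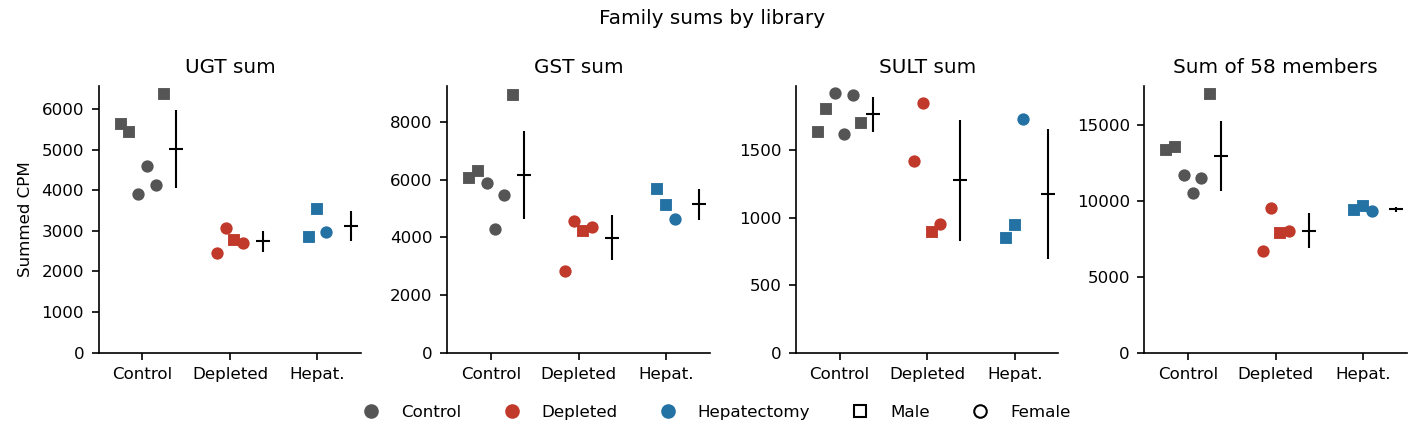
Summed CPM of the UGT, GST and SULT members and of all 58 members in each of the 13 livers (y axis, linear from 0), by group (x axis; squares male, circles female; black bars mean and SD). The UGT sums of all 7 depleted and hepatectomised livers lie below those of the 6 controls, whereas the GST and SULT sums overlap between groups.

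Per kilobase of transcript, Gstp1, Gstm1 and Gstp3 had the highest mean levels in control livers, at 1002 ± 1339, 998 ± 308 and 599 ± 553 CPM per kb (SD, n = 6). Ugt2b5 followed at 532 ± 208, Gstz1 at 516 ± 61.4, Ugt2b36 at 458 ± 118, Sult2a8 at 422 ± 125 and Gsta3 at 356 ± 66.3 CPM per kb (SD, n = 6). Neighbours in this order differed by less than the larger of their SDs. Gstp1 and Gstp3 fell into separate ranges of libraries, described with the GST genes.

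The first comparison asked how expression differed when stellate cells were depleted. In a fit over all genes with group and sex as terms (edgeR quasi-likelihood F-test, called at a Benjamini-Hochberg adjusted p-value under 0.05), 20 of 53 members were called, 18 lower and 2 higher. Over all 13831 genes tested, 33.9% were called, 18.9% higher and 15% lower, whereas 34.0% of the members were lower and 3.77% higher. The median log2 fold change was -0.44 over the members and -0.03 over all genes. By family, 7 of 17 UGT genes were lower and 1 higher, 7 of 20 GST genes were lower, and 4 of 16 SULT genes were lower and 1 higher. Ranges did not overlap between depleted and control livers for 12 members, 11 of them below the controls, against 28.4% of all genes (16.5% above, 11.9% below). Without depleted replicate 4, 27 members were called (35.1% of all genes), and without depleted replicate 3, the only depleted male, 16 were (21.6% of all genes). Among females alone 10 were called, 8 lower and 2 higher (20% of all genes, 13.6% higher and 6.4% lower). The calls of Gstm6, Gstt1, Gstz1, Sult1c2, Ugt2a3, Ugt2b1, Ugt2b36, Ugt2b37, Ugt2b5 and Ugt3a1 were lost there.

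The second comparison asked how expression differed 72 h after partial hepatectomy. Only 3 members were called, all lower (Ugt2a3, Ugt2b35 and Ugt2b36), against 8.42% of all genes called (6.06% higher, 2.36% lower). The median log2 fold change of the members was -0.45 against -0.02 over all genes, and 44 of 53 members had a negative estimate (83.0%, against 52.2% of all genes). An unadjusted p-value under 0.05 with a negative estimate was found for 16 members (30.2%), against 11% of all genes. Ranges did not overlap for 8 members, 7 of them below the controls, against 13.7% of all genes (7.41% above, 6.25% below). Scaling the libraries to their totals alone moved the median of all genes to -0.24 and called 15 members, all lower (15.8% of all genes, 4.53% higher and 11.3% lower). DESeq2 called 12 members, against 14% of all genes (8.63% higher, 5.39% lower). Beside the 3 above, it called Gsta2, Gstt2, Sult1c2, Sult2a8, Ugt1a6a, Ugt2b34, Ugt2b5 and Ugt3a1 lower and Sult1e1 higher. By edgeR without hepatectomised replicate 1, 2 or 3 in turn, 0, 1 and 2 members were called (6.72%, 3.43% and 6.82% of all genes).

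**Figure D2:**
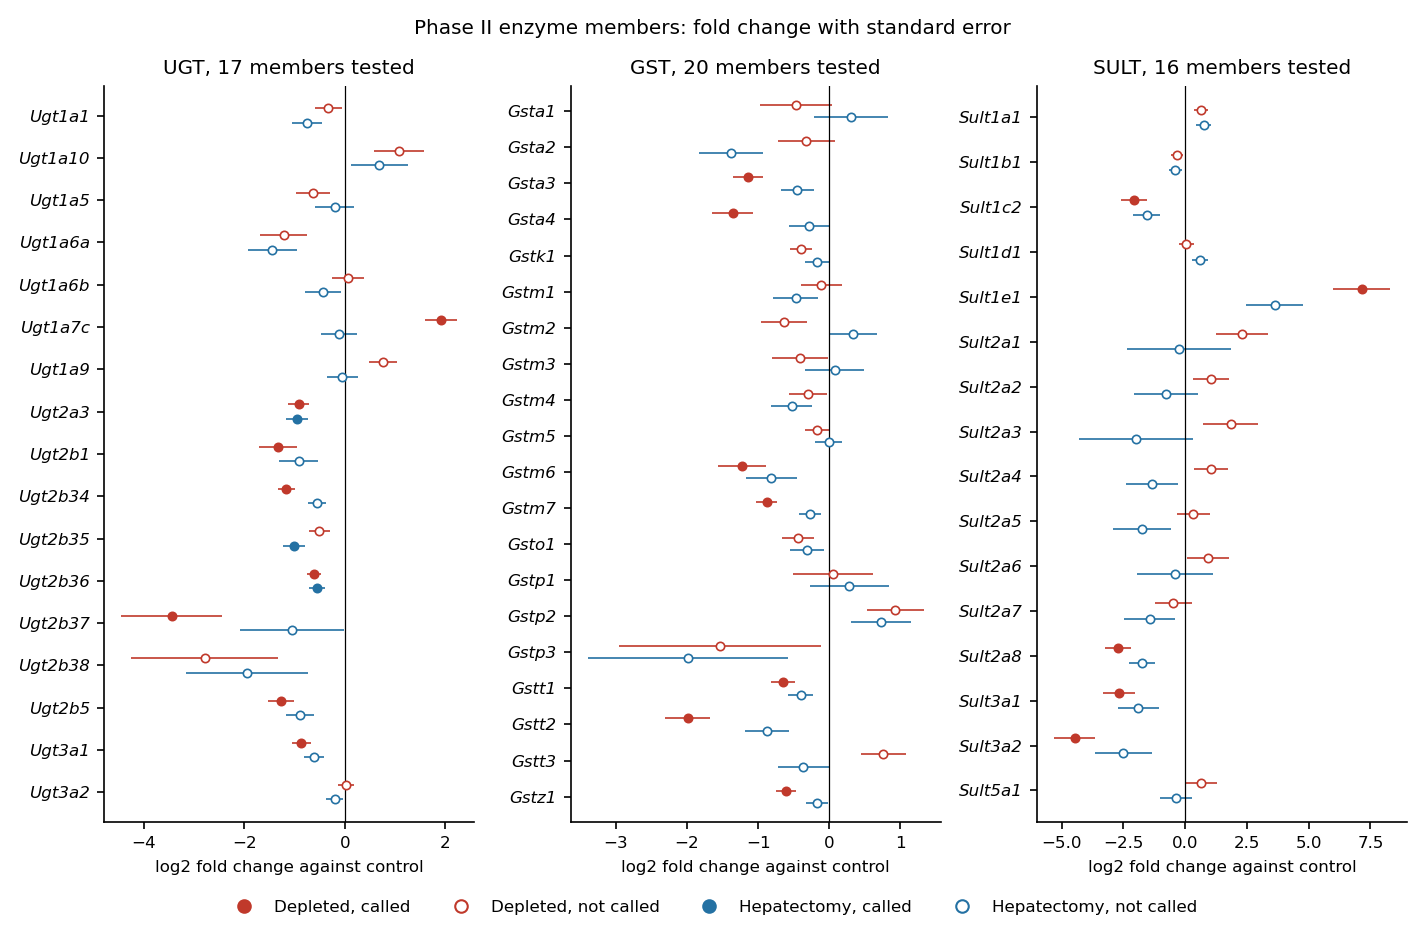
Log2 fold change against control (x axis) with its standard error (bars) for the 53 tested members by family, in depleted (red) and hepatectomised (blue) livers; filled symbols passed an adjusted p-value of 0.05. Most estimates of the Ugt2b genes and of the GST genes lie below 0, while Sult1e1 (7.15) and Ugt1a7c (1.92) are the filled symbols above 0. Both comparisons share the same 6 controls.

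Among the glucuronosyltransferases, the Ugt2b genes, whose enzymes act on steroids and bile acids, made up 5 of the 7 that were lower in depleted livers. The 7 Ugt2b genes lie in a cluster on chromosome 5, and those called were Ugt2b1, Ugt2b34, Ugt2b36, Ugt2b37 and Ugt2b5 (15% of all genes were lower). The summed level of the Ugt2b genes in depleted livers was 43.7% of the control mean, whereas that of the Ugt1a genes was 97.3%, with the sexes pooled. Among females alone these means were 56.1% and 85.4% (n = 3 and 3). The Ugt2b sums of the depleted females (1287 to 1877 CPM) lay below those of the control females (2357 to 3344 CPM), and the Ugt1a sums (291.2 to 758.4 CPM against 524 to 689.3 CPM) overlapped. In hepatectomised livers the means over both sexes were 60.8% of the control mean for Ugt2b and 59.1% for Ugt1a. There 2 of 7 Ugt2b genes and 0 of 7 tested Ugt1a genes were called, against 8.42% of all genes (2.36% lower).

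RefSeq promoter windows (GRCm38.p6, 250 bases before to 50 after the start) were available for 50 members and were searched on both strands for short response elements. The antioxidant response element TGACNNNGC was in any window of 3 of the 50 members, against 13.99% of all 27025 gene symbols with such windows. The xenobiotic response element core GCGTG was in 11 members (35.15% of all symbols) and the STAT site TTCNNNGAA in 4 (9.55%). None of these patterns was in any of the 7 Ugt2b promoters. A match is a description of the letters in these windows.

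Ugt2b34 differed most evenly. Its level was 595.5, 682.4 and 898.7 CPM (lowest, median and highest control), 308.8, 335.7, 298.3 and 310.2 CPM in depleted livers and 469.7, 594.8 and 370.1 CPM in hepatectomised livers. All 4 depleted livers lay within a narrow band below every control and every hepatectomised liver, and the hepatectomised livers lay below the controls, replicate 2 by a small margin. Its log2 fold change was -1.17 ± 0.16 (SE) in depleted livers (edgeR adjusted p = 1.87e-04) and -0.55 ± 0.18 (SE) after hepatectomy (adjusted p = 0.0787). It was also lower in depleted than in hepatectomised livers (-0.62 ± 0.20, SE, edgeR adjusted p = 0.0385), a call that was lost without each depleted replicate from 1 to 3 and without hepatectomised replicate 1 or 2 (adjusted p from 0.051 to 0.149), without control replicate 2 and depleted replicate 4 together (adjusted p = 0.0562), and with the replicate number as a block (adjusted p = 0.0525).

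Ugt2b5, the Ugt2b gene with the highest level per kilobase in controls, was at 551.2, 989.3 and 1555 CPM in controls (lowest, median and highest), at 242.2, 274.7, 374.6 and 513.1 CPM in depleted livers and at 534.7, 624.4 and 474.4 CPM after hepatectomy. The depleted livers all lay below the controls and 2 of the 3 hepatectomised livers did so by a small margin. The log2 fold change was -1.27 ± 0.26 (SE) in depleted livers (edgeR adjusted p = 0.00255) and -0.89 ± 0.28 (SE) in hepatectomised livers (adjusted p = 0.0655). Without control replicate 2 and depleted replicate 4 the second was called (-0.92, edgeR adjusted p = 0.0346).

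Ugt2b36 was the member called lower in both comparisons with the highest level. It was at 675.2, 945.1 and 1311 CPM in controls (lowest, median and highest), at 466.5, 579.8, 670.2 and 541.1 CPM in depleted livers and at 717.9, 667.5 and 603.8 CPM in hepatectomised livers. Depleted livers lay below the controls, while hepatectomised replicate 1 lay inside their range. The log2 fold changes were -0.62 ± 0.15 (SE, edgeR adjusted p = 0.00594) in depleted livers and, in hepatectomised livers, -0.55 ± 0.16 (SE, adjusted p = 0.0488). The second call was lost in 8 of the 9 fits that left out 1 control or hepatectomised liver (it held without control replicate 5), and with the replicate number as a block (adjusted p = 0.154). It was also lost without the sex term, without the low-count filter, with only the 2 groups compared and in males only.

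Ugt2a3, the only Ugt2a gene with enough reads, was at 290.1, 377.8 and 452.1 CPM in controls (lowest, median and highest), at 224.1, 303.9, 154.0 and 190.1 CPM in depleted livers and at 148.4, 172.6 and 266.6 CPM after hepatectomy. Depleted replicate 2 overlapped the lowest control, and all hepatectomised livers lay below it. The log2 fold changes were -0.92 ± 0.21 (SE, edgeR adjusted p = 0.0044) in depleted livers and, in hepatectomised livers, -0.95 ± 0.22 (SE, adjusted p = 0.0206). The hepatectomy call was lost without hepatectomised replicate 1 (adjusted p = 0.0782) or 2 (adjusted p = 0.0885). Ugt2b35 was called lower after hepatectomy only, at -1.01 ± 0.23 (SE, edgeR adjusted p = 0.0176). That call was lost without hepatectomised replicate 1 (adjusted p = 0.0615) or 3 (adjusted p = 0.0888), without the sex term and in males only. The Ugt2b35 estimate in depleted livers was -0.51 ± 0.21 (SE, edgeR adjusted p = 0.0751). Without depleted replicate 4 that estimate passed the threshold (-0.69, adjusted p = 0.0137).

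Ugt2b1 and Ugt2b38 combined a sex difference with low levels in the altered male livers. Ugt2b1 was at 907.7 to 1217 CPM in the 3 control males and at 298.5 to 364.2 CPM in the 3 control females, and the log2 difference of males against females was 1.72 ± 0.17 (SE, edgeR adjusted p = 0.00372). The depleted male was at 209.1 CPM, below the control females, and the hepatectomised males were at 255.1 and 593.2 CPM. The depleted females were at 122.3, 149.4 and 296.2 CPM, and the log2 fold change in depleted livers was -1.33 ± 0.38 (SE, edgeR adjusted p = 0.0161). That call was lost without the depleted male (-0.98, adjusted p = 0.0949). Ugt2b38, whose coding sequence is 97.1% identical to that of Ugt2b5, was at 9.56 to 35.1 CPM in control males and at 0.142 to 0.652 CPM in control females (log2 difference 5.96 ± 0.71, SE, edgeR adjusted p = 0.0196). It was at 0.0873 CPM in the depleted male and at 0.999 and 5.73 CPM in the hepatectomised males. Its estimate in depleted livers, -2.79 ± 1.47 (SE), had an edgeR adjusted p of 0.164, or 0.00496 without depleted replicate 4, where the estimate was -6.69. The sex call of Ugt2b38 was lost without control replicate 1, 3, 5 or 6 (adjusted p from 0.0601 to 0.128).

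Ugt2b37 was called lower in depleted livers at -3.45 ± 1.01 (SE, edgeR adjusted p = 0.0191), but control replicate 4 alone held 61.1 CPM and the other controls 2.11 to 5.60 CPM. Without that liver the log2 fold change was -1.52 (adjusted p = 0.153). It was not called with limma-voom (adjusted p = 0.103), and DESeq2 gave no adjusted p. The call was also lost without depleted replicate 1, 2 or 3 (adjusted p from 0.0524 to 0.0692). The depleted livers were at 0.985, 0.672, 0.384 and 3.90 CPM, of which the first 3 lay below every control. Ugt3a1, an N-acetylglucosaminyltransferase of bile acids, was at 33.6, 43.1 and 52.9 CPM in controls (lowest, median and highest) and at 20.5, 31.7, 25.9 and 16.7 CPM in depleted livers, without overlap. It fell by 0.87 ± 0.19 (SE) on the log2 scale (edgeR adjusted p = 0.00348).

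The Ugt1a genes, which include the bilirubin-conjugating Ugt1a1, share their 3′ exons, and 50.3% to 60.6% of the exonic length of each was shared with another Ugt1a gene. How the counting treated reads in shared exons is not given in the sources used here. Ugt1a1 was at 205.4, 367.6 and 498.4 CPM in controls (lowest, median and highest), at 426.3, 527.1, 226.4 and 162.7 CPM in depleted livers and at 144.3, 136.5 and 336.2 CPM after hepatectomy. Depleted replicates 1 and 3 lay inside the control range, replicate 2 above it and replicate 4 below it. Its log2 fold changes were -0.33 ± 0.27 (SE, edgeR adjusted p = 0.389) in depleted livers and, in hepatectomised livers, -0.76 ± 0.30 (SE, adjusted p = 0.139), or -0.64 without control replicate 2 and depleted replicate 4 (adjusted p = 0.0393). Ugt1a6a, which acts on planar phenols, gave -1.22 ± 0.47 (SE, edgeR adjusted p = 0.0623) in depleted livers and, in hepatectomised livers, -1.44 ± 0.49 (SE, adjusted p = 0.0915). All 50-base stretches of the Ugt1a6a coding sequence (100%) also occur elsewhere in the transcriptome, so its counts are uncertain. Ugt1a6a was called lower in depleted livers without control replicate 2 (-1.32, edgeR adjusted p = 0.0395) or depleted replicate 1 (adjusted p = 0.0443), with the replicate number as a block (adjusted p = 0.0214), without the sex term (adjusted p = 0.0291), with DESeq2 (adjusted p = 0.0129) and with limma-voom (adjusted p = 0.0474). DESeq2 also called it lower after hepatectomy (adjusted p = 0.0169), as did edgeR with library totals alone (adjusted p = 0.0356). Ugt1a9, another phenol-conjugating isoform, gave 0.76 ± 0.28 (SE, edgeR adjusted p = 0.0539) in depleted livers, and was called higher there with DESeq2 (adjusted p = 0.0303), with library totals alone (adjusted p = 0.0300) and without depleted replicate 1 (0.95, adjusted p = 0.0145).

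Ugt1a7c, named here after its values were seen, was the only UGT gene called higher in depleted livers by the edgeR test over all libraries. It was at 0.225, 0.485 and 0.938 CPM in controls (lowest, median and highest), at 1.67, 1.88, 2.27 and 1.34 CPM in depleted livers and at 0.529, 0.589 and 0.449 CPM after hepatectomy. All depleted livers lay above all others, at a level that remains low. The log2 fold change was 1.92 ± 0.32 (SE, edgeR adjusted p = 5.96e-04) against controls and 2.03 ± 0.41 (SE, edgeR adjusted p = 0.00367) against hepatectomised livers.

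**Figure D3:**
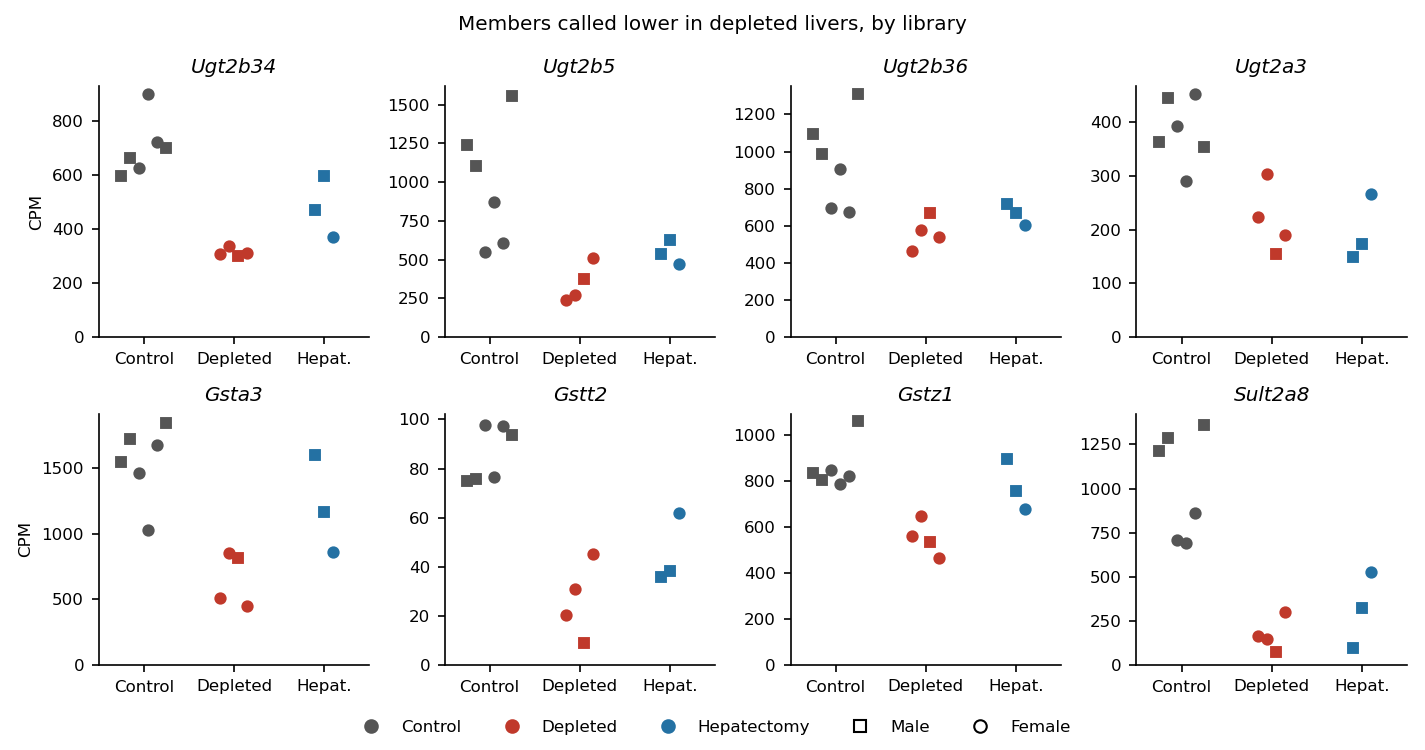
CPM (y axes, linear from 0) of 8 members called lower in depleted livers, in each of the 13 livers by group (squares male, circles female). The 4 depleted livers lie below all 6 controls in every panel except that of Ugt2a3, where depleted replicate 2 (303.9 CPM) lies above the lowest control (290.1 CPM).

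Of the glutathione S-transferases, 7 of 20 were lower in depleted livers (Gsta3, Gsta4, Gstm6, Gstm7, Gstt1, Gstt2 and Gstz1), against 15% of all genes. None was called after hepatectomy by edgeR over all libraries (8.42% of all genes were), where 4 had an unadjusted p-value under 0.05 (24.3% of all genes did). Gsta3, the main alpha-class enzyme here and one that detoxifies aflatoxin epoxide in mice, was at 1026, 1613 and 1845 CPM in controls (lowest, median and highest), at 507.8, 854.7, 813.8 and 445.5 CPM in depleted livers and at 1602, 1163 and 862.7 CPM after hepatectomy. No depleted liver reached the lowest control, whereas 2 of the 3 hepatectomised livers lay inside the control range. The log2 fold changes were -1.14 ± 0.22 (SE, edgeR adjusted p = 0.00134) in depleted livers and, in hepatectomised livers, -0.45 ± 0.23 (SE, adjusted p = 0.257).

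Gsta4, which conjugates the lipid peroxidation product 4-hydroxynonenal, was at 69.7, 94.0 and 112.4 CPM in controls (lowest, median and highest), at 45.4, 53.4, 17.03 and 50.7 CPM in depleted livers and at 86.5, 44.5 and 91.9 CPM after hepatectomy. The depleted livers lay below the controls, and the male among them was lowest. Gsta4 fell by 1.36 ± 0.29 (SE) on the log2 scale (edgeR adjusted p = 0.00335). Gsta1 and Gsta2, with 97.5% identical coding sequences and therefore uncertain counts, were not called by edgeR in either comparison, although Gsta2 lay at 10.4, 3.85 and 11.97 CPM in the hepatectomised livers, below all controls (14.8 to 28.5 CPM). Gsta2 gave -1.38 after hepatectomy (edgeR adjusted p = 0.0834) and was called with DESeq2 (adjusted p = 0.0161) and with library totals alone (adjusted p = 0.0358).

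Among the GST genes called in depleted livers, Gstt2 had the largest fall there. It was at 74.8, 85.2 and 97.9 CPM in controls (lowest, median and highest), at 20.2, 31.1, 8.85 and 45.0 CPM in depleted livers and at 36.0, 38.2 and 62.0 CPM in hepatectomised livers. Both altered groups lay wholly below the controls. The log2 fold changes were -1.99 ± 0.32 (SE, edgeR adjusted p = 4.64e-04) in depleted livers and, in hepatectomised livers, -0.88 ± 0.32 (SE, adjusted p = 0.111). The hepatectomy difference of Gstt2 was called with DESeq2 (adjusted p = 0.0447), library totals alone (adjusted p = 0.0385), only the 2 groups compared (edgeR adjusted p = 0.0153) and males only (adjusted p = 0.0208). Gstt1, also of the theta class, fell by 0.65 ± 0.17 (SE) on the log2 scale (edgeR adjusted p = 0.0101), with overlapping ranges, and the call was lost without the depleted male (adjusted p = 0.0826).

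Gstt3, the other theta-class gene, was at 25.2 to 40.9 CPM in control males and 71.1 to 121.9 CPM in control females (log2 difference of males against females -1.60 ± 0.24, SE, edgeR adjusted p = 0.0293), a call that was lost without control replicate 1, 3, 5 or 6 (adjusted p from 0.0856 to 0.182). In depleted livers it was at 135.9, 243.9, 62.5 (the male) and 67.1 CPM, with an estimate of 0.76 ± 0.32 (SE, edgeR adjusted p = 0.0827), or 0.99 without replicate 4 (adjusted p = 0.0115). Its counts are uncertain, since 70.3% of the 50-base stretches of its coding sequence also occur elsewhere in the transcriptome.

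Gstz1, the zeta-class enzyme that isomerises maleylacetoacetate in tyrosine breakdown, was at 786.7, 827.9 and 1063 CPM in controls (lowest, median and highest) and at 559.1, 648.8, 535.5 and 467.1 CPM in depleted livers. The ranges did not overlap. It fell by 0.60 ± 0.14 (SE) on the log2 scale (edgeR adjusted p = 0.00535), a call lost among females alone. Hepatectomised livers were at 894.9, 755.1 and 677.1 CPM, with an estimate of -0.17 ± 0.15 (SE, edgeR adjusted p = 0.527). Gstk1 and Gsto1, the kappa and omega genes, had estimates in depleted livers of -0.40 ± 0.16 (SE, edgeR adjusted p = 0.076) and of -0.44 ± 0.23 (SE, adjusted p = 0.156), respectively. Gstk1 was called without depleted replicate 2 (-0.55, edgeR adjusted p = 0.0115).

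In the mu class, 2 of 7 genes were lower in depleted livers, against 15% of all genes. Gstm6 fell by 1.22 ± 0.34 (SE) on the log2 scale (edgeR adjusted p = 0.0145), a call lost without the depleted male (adjusted p = 0.0595). Gstm7, named after its values were seen, was at 70.4 to 97.5 CPM in controls and at 49.5, 58.01, 35.7 and 43.9 CPM in depleted livers, without overlap, and fell by 0.88 ± 0.15 (SE) on the log2 scale (edgeR adjusted p = 5.82e-04). Gstm1, the mu-class gene with the highest level, was at 991.3, 1397 and 2269 CPM in controls (lowest, median and highest) and at 708.8, 1615, 1562 and 1506 CPM in depleted livers. Only depleted replicate 1 lay outside the control range, and the estimate was -0.11 ± 0.29 (SE, edgeR adjusted p = 0.809). Gstm3 gave -0.41 ± 0.39 (SE, edgeR adjusted p = 0.454), or -1.003 without depleted replicate 4 (adjusted p = 0.0157). Of the 50-base stretches of its coding sequence, 59.0% also occur elsewhere in the transcriptome.

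The pi-class genes split the livers in a way that neither treatment nor, wholly, the label of sex described. Gstp1, the major hepatic pi-class enzyme of male mice, and Gstp3 lie near each other on chromosome 19 (Gstp1 at 4035407 to 4037985 and Gstp3 at 4057477 to 4059569, GRCm38). Their coding sequences have 633 bases each and differ at 180 positions, whereas Gstp1 and Gstp2 differ at 12, and Gstp1 and Gstp3 share no stretch of 50 coding bases. Among stretches of 120 coding bases that start at a codon, the one with the most differing positions is shown. It covers positions 247 to 366 of the GENCODE M21 coding sequences, counted from the start codon. Gstp1 and Gstp3 differ at 55 positions in it, a denser part than their coding sequences as a whole. Capitals mark the 56 positions where the 3 sequences are not all the same:
Gstp1: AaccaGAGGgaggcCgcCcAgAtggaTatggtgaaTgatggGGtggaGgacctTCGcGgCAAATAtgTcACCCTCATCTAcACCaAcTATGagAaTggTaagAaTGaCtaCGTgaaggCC
Gstp2: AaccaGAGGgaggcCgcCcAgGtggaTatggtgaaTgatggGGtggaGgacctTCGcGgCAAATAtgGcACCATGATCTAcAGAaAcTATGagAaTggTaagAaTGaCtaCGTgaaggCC
Gstp3: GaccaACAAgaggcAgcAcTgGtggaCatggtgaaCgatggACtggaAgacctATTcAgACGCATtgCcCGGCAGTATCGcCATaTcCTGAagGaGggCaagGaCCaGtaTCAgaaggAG

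Gstp1 was at 1602, 247.8 and 2437 CPM in control males (replicates 1, 2 and 6), at 83.2 to 94.4 CPM in control females, at 75.8, 77.3, 709.2 and 220.1 CPM in depleted livers and at 1254, 1715 and 130.3 CPM in hepatectomised livers. Gstp3 was at 15.7, 1071 and 24.7 CPM in the same control males, at 390.6 to 546.6 CPM in control females, at 324.7, 372.0, 14.1 and 848.5 CPM in depleted livers and at 23.8, 37.5 and 573.4 CPM in hepatectomised livers. In 5 livers, all male, Gstp1 had 45.8 to 102.2 times as many reads as Gstp3, and in the other 8, which were the 7 females and control replicate 2, Gstp3 had 3.86 to 5.80 times as many as Gstp1. No liver lay between these ranges. Control replicate 2 carries a male label, and its summed Y-linked reads (7211) lay among those of the other males (4051 to 7741). The female libraries had 0 to 2 such reads, except depleted replicate 4, which had 73.

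Control replicate 2 and depleted replicate 4 also had the highest Gstp3 levels, at 1071 and 848.5 CPM against 324.7 to 573.4 CPM in the 6 other livers of that range. Neither Gstp1 nor Gstp3 was called in either comparison with control, with edgeR adjusted p-values of 0.955 and 0.443 in depleted and 0.809 and 0.419 in hepatectomised livers. In control males against control females, Gstp1 had a log2 difference of 4.02 ± 0.82 (SE, edgeR adjusted p = 0.145). The Gstp1 difference was called by DESeq2 (adjusted p = 1.02e-04) and by the sex term over all 13 libraries (3.56 ± 0.53, SE, edgeR adjusted p = 0.00538). Without control replicate 2, which was singled out by these same genes so that the p-values are not independent of the choice, edgeR called Gstp1 higher (4.52 ± 0.24, SE, adjusted p = 2.56e-04) and Gstp3 lower (-4.57 ± 0.30, SE, adjusted p = 7.76e-04) in the control males. The counts of Gstp1 and Gstp2 are uncertain, since 71.1% and 81.7% of their coding 50-base stretches also occur elsewhere in the transcriptome (0% for Gstp3). Gstp2 stayed between 0.331 and 3.42 CPM in all livers.

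**Figure D4:**
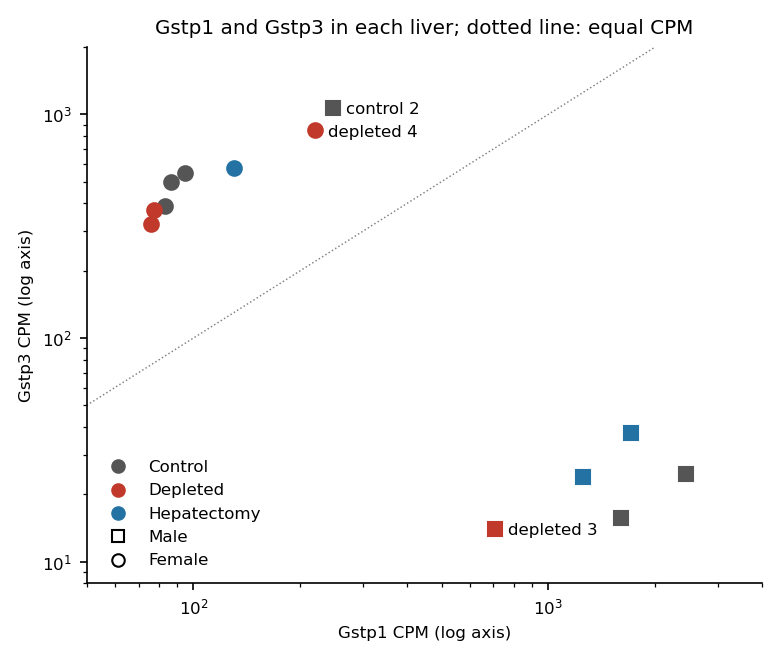
Gstp1 (x axis) against Gstp3 (y axis) in CPM, both on log axes, in each of the 13 livers (colour by group, squares male, circles female; dotted line, equal CPM). The 5 male livers at the lower right have far more Gstp1 than Gstp3, and the 7 female livers and control replicate 2 at the upper left have more Gstp3 than Gstp1.

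Among the sulfotransferases, Sult1e1, the estrogen sulfotransferase, had the largest rise. It was between 0.0300 and 0.988 CPM in controls (median 0.273), at 12.1, 121.0, 76.4 and 0.557 CPM in depleted livers and at 9.14, 6.34 and 2.52 CPM in hepatectomised livers. Depleted replicates 1 to 3 and all hepatectomised livers lay above every control, whereas depleted replicate 4 lay inside the control range. This liver had the highest summed stellate (74.0 CPM), Kupffer cell (1288 CPM), T cell (68.8 CPM), B cell (31.3 CPM) and proliferation (96.2 CPM) marker levels and the lowest endothelial level (162.6 CPM) of the depleted livers, and their part in its Sult1e1 level was not tested. The log2 fold change was 7.15 ± 1.16 (SE, edgeR adjusted p = 5.54e-04) in depleted livers and 3.62 ± 1.153 (SE, edgeR adjusted p = 0.075) after hepatectomy. Without control replicate 2 and depleted replicate 4 the second was called (4.21, edgeR adjusted p = 0.0243). With limma-voom the first gave an adjusted p of 0.0501, and with DESeq2 the hepatectomy difference was called (adjusted p = 0.0216).

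Sult2a8, a sulfotransferase of bile acids and the most abundant SULT per kilobase in controls, was lower in depleted livers. It was at 689.6, 1037 and 1360 CPM in controls (lowest, median and highest), at 163.7, 145.5, 75.0 and 301.1 CPM in depleted livers and at 94.3, 321.9 and 528.6 CPM after hepatectomy. All 7 altered livers lay below all controls. The log2 fold change was -2.71 ± 0.54 (SE, edgeR adjusted p = 0.00203) in depleted livers and -1.74 ± 0.54 (SE, edgeR adjusted p = 0.0663) in hepatectomised livers. DESeq2 and limma-voom called the second difference (adjusted p = 0.00313 and 0.0348).

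A set of SULT genes was nearly confined to females. Sult2a1 to Sult2a6, Sult3a1 and Sult3a2 had 0 or 1 read each summed over the 3 control males. In control females Sult3a1 had 16644 reads, a ratio to males of 14270 with an exact 95% interval of 2561 to 563700, which covers counting error only. Sult2a2 was at least 1152-fold higher and Sult3a2 at least 252-fold higher in control females than the level of 3 reads over the 3 males. Single livers carried these bounds: without control replicate 4, which held 643 of the 881 female reads of Sult3a2, its bound was 104-fold, and without control replicate 3 that of Sult2a2 was 625-fold. In the edgeR fit of the controls Sult3a1 alone of these genes passed the test of sex (adjusted p = 4.74e-05). DESeq2 on the same controls and the edgeR sex term over 13 libraries each also called Sult2a1, Sult2a2, Sult2a4, Sult2a5, Sult2a6 and Sult3a2 lower in males (adjusted p up to 2.29e-04 and up to 0.0115). Control females varied widely, with Sult2a1 at 56.1, 11.7 and 1.47 CPM in replicates 3, 4 and 5.

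Within this set both Sult3a genes were lower in depleted livers, while edgeR over all libraries called no gene from Sult2a1 to Sult2a6. Sult3a1, whose enzyme sulfates amines, was at 86.9, 182.0 and 113.9 CPM in control females and at 16.6, 17.6 and 10.6 CPM in depleted females, without overlap, and at 32.8 CPM in the hepatectomised female. Its log2 fold change in depleted livers was -2.68 ± 0.63 (SE, edgeR adjusted p = 0.00602), and that of its close copy Sult3a2, with 90.9% identical coding sequence, was -4.48 ± 0.83 (SE, edgeR adjusted p = 0.00417). The Sult3a1 call was lost with DESeq2 (-0.04, adjusted p = 0.984), without sex in the model (adjusted p = 0.434) and with the replicate number as a block (adjusted p = 0.185). The Sult3a2 call was lost without sex in the model (-3.97, edgeR adjusted p = 0.141), and DESeq2 gave no adjusted p for it. The depleted male held 0.157 CPM of Sult3a1.

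Sult2a1, a sulfotransferase of hydroxysteroids and bile acids, ranged from 32.4 to 207.4 CPM in depleted females. Depleted replicates 1 and 2 lay above every control female, and the estimate was 2.31 ± 1.05 (SE, edgeR adjusted p = 0.11). Without control replicate 3 it was 4.01 (edgeR adjusted p = 0.0203), and with limma-voom 3.22 (adjusted p = 0.0129), both called. Sult2a2 was at 82.6, 64.3 and 34.7 CPM in depleted females against 60.5, 29.7 and 3.53 CPM in control females (estimate 1.03 ± 0.73, SE, edgeR adjusted p = 0.306). In the depleted male, Sult2a1 was at 0.0175 CPM and Sult2a2 at 0.0524 CPM. The coding sequence of Sult2a1 is 94.9% identical to that of Sult2a5, so counts within this cluster are uncertain.

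**Figure D5:**
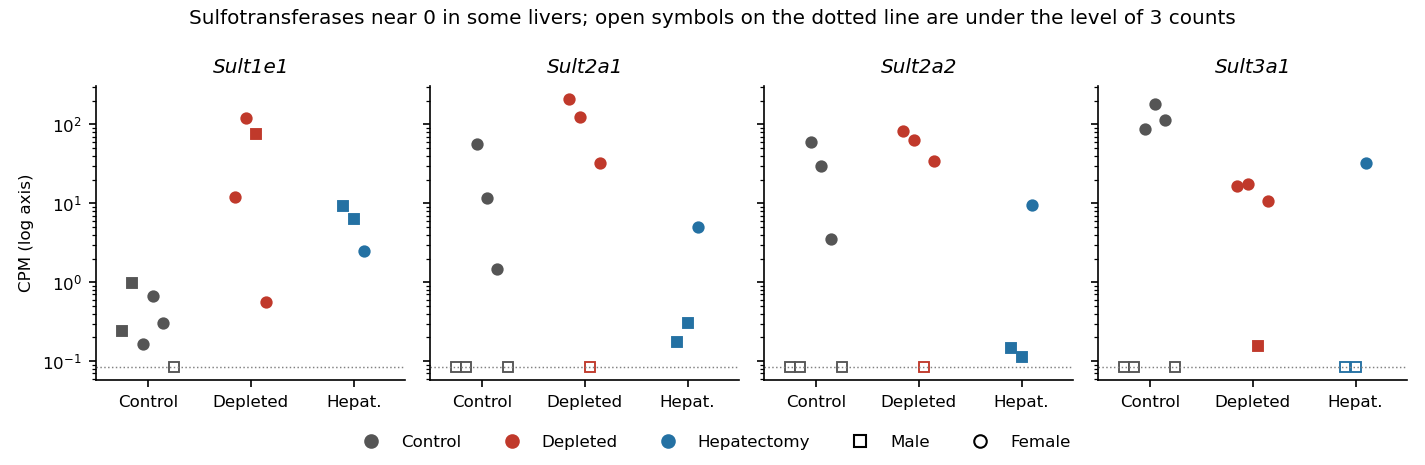
CPM (log axes) of Sult1e1, Sult2a1, Sult2a2 and Sult3a1 in each of the 13 livers by group (squares male, circles female); open symbols on the dotted line are livers under the level of 3 reads. Sult1e1 is high in 3 of 4 depleted livers, the Sult2a genes are near 0 in males, and Sult3a1 is lower in the 3 depleted females than in the 3 control females.

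The other sulfotransferases showed smaller differences or none that passed the test. Sult1c2 was at 5.33 to 16.8 CPM in controls and at 4.88, 3.14, 0.751 and 7.75 CPM in depleted livers, with overlap, and fell by 2.08 ± 0.53 (SE) on the log2 scale (edgeR adjusted p = 0.00924, or 0.0864 with the replicate number as a block). Sult1a1, the main phenol sulfotransferase, was at 161.7, 302.7 and 657.3 CPM in controls (lowest, median and highest) and at 654.4, 987.9, 483.5 and 373.2 CPM in depleted livers, with an estimate of 0.63 ± 0.28 (SE, edgeR adjusted p = 0.0963), or 0.85 without replicate 4 (adjusted p = 0.0151). Sult1b1, a thyroid hormone sulfotransferase, and Sult1d1, which sulfates catecholamines, gave -0.33 ± 0.23 and 0.05 ± 0.31 (SE, edgeR adjusted p = 0.302 and 0.922). Without control replicate 4 Sult1b1 was called lower (-0.52, edgeR adjusted p = 0.0293). Sult5a1 was higher in control males than in control females (log2 difference 1.92 ± 0.27, SE, edgeR adjusted p = 0.0187), a call lost without control replicate 1, 3 or 5 (adjusted p from 0.0601 to 0.122), and was not called in either comparison with control. Sult2b1 was at or under 0.227 CPM in every liver.

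Sex differences between control livers were found for 5 of 52 members tested, against 0.738% of 13005 genes. Ugt2b1, Ugt2b38 and Sult5a1 were higher and Gstt3 and Sult3a1 lower in males. Of these 5, Sult3a1 alone was also called by the sex term over 13 libraries. That term called 10 members (1.03% of all genes), and DESeq2 on the controls called 22 (3.42%). Without single controls 2 to 10 members were called (0.241% to 1.51% of all genes). Whether the effect of depletion differed by sex rests on the single depleted male. The interaction of sex and depletion was called for 0 members by edgeR and for 1 by DESeq2, against 0.0217% of all genes by edgeR and 0.188% by DESeq2, while 7 members (13.2%) had an unadjusted p-value under 0.05, against 3.47% of all genes.

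Depleted livers were also set against hepatectomised livers, with 5 members called against 23.4% of all genes (13.3% higher, 10.1% lower). Ugt1a7c was higher and Gsta4, Gstm7, Gstt2 and Ugt2b34 were lower. Gsta4, for example, differed by -1.08 ± 0.34 (SE, edgeR adjusted p = 0.0348) and Gstm7 by -0.61 ± 0.17 (SE, edgeR adjusted p = 0.0234). The Gsta4 call was lost without depleted replicate 1 or 3 or hepatectomised replicate 1 or 3 (adjusted p from 0.0622 to 0.143), and the Gstm7 call without depleted replicate 3 or hepatectomised replicate 1 or 3 (adjusted p from 0.0697 to 0.129). The Gstt2 call was lost without any one of depleted replicates 1 to 3 or of the hepatectomised livers (adjusted p from 0.0528 to 0.140). Without the sex term neither Gsta4, Gstm7 nor Gstt2 was called (adjusted p from 0.0642 to 0.146). Without the depleted male, only 1 member was called (12.4% of all genes). Scaling to library totals alone moved the median of all genes to 0.27 and called 5 members higher and 0 lower, with 22.4% of all genes higher and 4.41% lower.

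The supply of the conjugated groups was described with lists of pathway genes. Their counts are set against 33.9% of all genes called in depleted livers (18.9% higher, 15% lower) and 8.42% after hepatectomy (6.06% higher, 2.36% lower). Genes named from a list are among the 4 called ones with the largest changes and a mean log2 CPM of at least 1. Called genes below that level are counted but not named, whatever the size of their change. In depleted livers, UDP-glucuronic acid supply had 2 of 8 genes lower and 1 higher. Ugp2, which makes UDP-glucose, fell by 0.66 ± 0.20 (SE) on the log2 scale (edgeR adjusted p = 0.0227, not passing without control replicate 3, depleted replicate 3 or depleted replicate 4), and by 1.09 ± 0.22 (SE) after hepatectomy (edgeR adjusted p = 0.0119, not passing without hepatectomised replicate 2). Gusb, the lysosomal enzyme that removes glucuronic acid, rose by 0.59 ± 0.10 (SE, edgeR adjusted p = 6.29e-04) in depleted livers and, in hepatectomised livers, 0.53 ± 0.11 (SE, adjusted p = 0.0108, or 0.0874 with the replicate number as a block). Sulfate and PAPS supply had 2 of 9 genes lower and 2 higher in depleted livers and 0 called after hepatectomy. Papss2, which makes PAPS, fell by 0.98 ± 0.20 (SE, edgeR adjusted p = 0.00207, or 0.199 without the sex term) and the sulfate transporter gene Slc26a1 by 0.85 ± 0.14 (SE, edgeR adjusted p = 4.63e-04).

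Glutathione supply had 5 of 15 genes lower and 3 higher in depleted livers. Gclc, the catalytic subunit of the rate-limiting enzyme of glutathione synthesis, was at 250.3, 335.5 and 472.9 CPM in controls (lowest, median and highest) and at 110.0, 84.2, 130.4 and 138.2 CPM in depleted livers. The ranges did not overlap, and it fell by 1.51 ± 0.21 (SE) on the log2 scale (edgeR adjusted p = 1.66e-04). Cbs and Glo1, of transsulfuration and methylglyoxal removal, fell by 0.83 ± 0.16 and 0.86 ± 0.17 (SE), while Mat1a, which makes S-adenosylmethionine, rose by 1.00 ± 0.31 (SE, edgeR adjusted p = 0.0237, not passing without depleted replicate 2 or 3 or with the block). After hepatectomy 2 of 15 genes were higher and 0 lower: Chac1, which degrades glutathione, rose by 2.895 ± 0.48 (SE, edgeR adjusted p = 0.00448, or 0.0602 with the replicate number as a block) and Gss, which completes its synthesis, by 0.66 ± 0.17 (SE, edgeR adjusted p = 0.0346, not passing without any hepatectomised liver in turn or without control replicate 2, 3, 5 or 6).

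Other phase II enzymes had 5 of 17 genes lower and 3 higher in depleted livers, and 2 higher after hepatectomy. Nnmt, nicotinamide N-methyltransferase, rose by 1.89 ± 0.48 (SE, edgeR adjusted p = 0.00942) in depleted livers and, in hepatectomised livers, by 3.28 ± 0.55 (SE, adjusted p = 0.00477). The Nnmt call in depleted livers was lost without the depleted male (edgeR adjusted p = 0.0565) and that after hepatectomy with the block (adjusted p = 0.0504). As3mt, the arsenite methyltransferase, rose by 0.92 ± 0.19 and 1.00 ± 0.21 (SE), while Ephx2, soluble epoxide hydrolase, fell by 1.26 ± 0.20 (SE) and the methyltransferase gene Inmt by 2.21 ± 0.67 (SE) in depleted livers. The As3mt call after hepatectomy was lost without hepatectomised replicate 2 (edgeR adjusted p = 0.0632) and with the block (adjusted p = 0.0777). The Inmt call was lost without depleted replicate 1 (edgeR adjusted p = 0.0582) or 3 (adjusted p = 0.0657), without the sex term (adjusted p = 0.0506) and with the block (adjusted p = 0.078). Targets of NRF2, the transcription factor that the electrophile sensor KEAP1 releases and that drives many GST genes, moved both ways, with 7 of 18 higher and 4 lower in depleted livers and 1 each way after hepatectomy. Hmox1, heme oxygenase 1, rose by 1.88 ± 0.23 (SE, edgeR adjusted p = 6.32e-05) in depleted livers and, in hepatectomised livers, by 1.56 ± 0.25 (SE, adjusted p = 0.00381), and G6pdx, of the pentose phosphate pathway, by 2.13 ± 0.34 (SE, edgeR adjusted p = 4.32e-04) in depleted livers.

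Of 16 regulators of these genes, 2 were lower in depleted livers. Ppara, the fatty acid receptor, fell by 1.45 ± 0.29 (SE, edgeR adjusted p = 0.0019) and Rxra, partner of the xenobiotic receptors, by 0.47 ± 0.12 (SE, edgeR adjusted p = 0.00809). After hepatectomy Nr1i2, the receptor PXR, rose by 0.79 ± 0.16 (SE, edgeR adjusted p = 0.0108, not passing without replicate 3), while Nr3c1, the glucocorticoid receptor, and Nfe2l2, which encodes NRF2, fell by 0.72 ± 0.16 and 0.50 ± 0.13 (SE). The Nr3c1 and Nfe2l2 calls were each lost without any 1 hepatectomised liver (edgeR adjusted p from 0.0534 to 0.0662 and from 0.0652 to 0.166), and that of Nfe2l2 also without control replicate 1, 2, 5 or 6 and with the block (adjusted p = 0.123). Targets of CAR, PXR and AHR had 5 of 13 lower and 4 higher in depleted livers and 3 higher after hepatectomy. Cyp1a2 fell by 3.03 ± 0.54 (SE, edgeR adjusted p = 0.0011) and Cyp3a11 by 1.37 ± 0.39 (SE, edgeR adjusted p = 0.017, not passing without the depleted male), whereas Tiparp rose by 1.27 ± 0.32 (SE) in depleted and 1.96 ± 0.35 (SE) in hepatectomised livers.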

How the data were processed

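The authors deposited raw counts of reads per gene for 13 whole-liver libraries. Per the labels' protocols, total RNA was extracted with TRIzol and made into stranded mRNA libraries. Per the submitters' processing notes, STAR 2.7.1a, SAMtools 1.15.1, featureCounts 1.6.4 and the mm10 build were used; annotation release, strand setting and treatment of multimapping reads are not given in the sources used here. Symbols came from GENCODE M21, and gene lengths were those deposited with the counts.

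Members and lists were chosen with earlier results of these data known. Counts were fitted over all genes with edgeR 4.0.16 (R 4.3.3; filterByExpr, TMM, quasi-likelihood F-test, group and sex as terms, Benjamini-Hochberg threshold 0.05). CPM are TMM-scaled, and levels per kilobase divide them by exonic length. A level of 3 reads was taken as the floor, and intervals are exact 95% counting intervals. The rule for naming members took, by family and direction, up to 4 with the largest called changes and a mean log2 CPM of at least 1, plus a fixed set and those called between the sexes; 37 were named by it, and others, such as Gstp3, Gstm7, Sult3a2, Sult2a2 and Ugt1a7c, after their values were seen. Alternatives were other scalings and filters, DESeq2 1.42.0, limma 3.58.1 (voom), no sex term, replicate block, single sex, only the groups compared, each library left out, and, chosen after seeing the data, leaving out control replicate 2 with depleted replicate 4. Scripts were tested on simulated data.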

Additional observations from a re-analysis of the deposited data

Results flagged for a closer look

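Of 82 groups of 4 or 6 libraries examined, 6 held a library far from the others by Dixon's criterion, where chance gives about 1 in 20 (4.1). Gsta4 was at 17.03 CPM in depleted replicate 3, the only depleted male, against 45.4 to 53.4 CPM in the other depleted livers. Sult3a1 was at 0.157 CPM in the same liver, against 10.6 to 17.6 CPM in the depleted females. Gstm1 was at 708.8 CPM in depleted replicate 1, against 1506 to 1615 CPM in the others. Ugt2b37 was at 61.1 CPM in control replicate 4 against 2.11 to 5.60 CPM in the other controls, and Sult1b1 was at 21.4 CPM in that liver against 41.0 to 49.1 CPM. Gstz1 was at 1063 CPM in control replicate 6, against 786.7 to 849.4 CPM.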

How the results depend on the processing

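The depleted group against control had 16 to 27 members called when single libraries were left out (16 without depleted replicate 3, 27 without depleted replicate 4) and 10 in females only, with 21.6%, 35.1% and 20% of all genes called in these fits against 33.9%. The 3 called after hepatectomy became 15 with library totals alone, 12 with DESeq2, 5 with limma-voom, in males only and without control replicate 2 and depleted replicate 4, 7 with only the 2 groups compared, 1 without the sex term and 0 to 3 without single libraries, with 15.8%, 14%, 8.44%, 4.67%, 6.55%, 7.16%, 9.29% and 3.43% to 9.65% of all genes in that order, against 8.42%. Depleted against hepatectomised livers gave 10 with DESeq2, 8 with limma-voom, 11 without control replicate 2 and depleted replicate 4 and 1 to 12 without single libraries (28.5%, 24.7%, 27% and 12.4% to 28% of all genes, against 23.4%). Males against females gave 10 from the sex term over 13 libraries, 22 with DESeq2 and 2 to 10 without single libraries (1.03%, 3.42% and 0.241% to 1.51% of all genes, against 0.738%); the interaction gave 1 with DESeq2 (0.188%). The cause of these moves was not tested. With sex fitted, not every same-numbered pair correlated above 0.1: mean r was 0.116, 0.158 and -0.052 for depleted-control, depleted-hepatectomy and hepatectomy-control, against -0.018, -0.052 and 0.012 for other pairs. Without it, the hepatectomy-control pairs, each of 1 sex, had r of 0.107 to 0.523 and the others means below 0. The pairing is thus unsettled. With the replicate block, 19, 7 and 4 members were called for depleted-control, depleted-hepatectomy and hepatectomy-control. Of all genes, 28.1%, 22.9% and 4.57% were called with it, against 33.9%, 23.4% and 8.42% without. Estimates that changed sign were all uncalled. In depleted livers, Gstm1 gave 0.015 with library totals, 0.042 with the block and -0.23 to 0.086 without single libraries; Gstp1 gave -1.49 without sex, -0.68 without control replicate 2 and depleted replicate 4, and -0.51 to 0.42 without single libraries; Sult1d1 gave -0.058 with limma-voom, -0.11 with the block, -0.29 in females and -0.296 to 0.30 without single libraries. Sult5a1 gave -0.21 without control replicate 2 and depleted replicate 4 and -0.14 to 0.90 without single libraries, and Gstp3 gave 0.10 in females. After hepatectomy, the ranges without single libraries were -0.14 to 0.55 for Gsta1, -0.17 to 0.23 for Gstm3, -1.61 to 5.31 for Sult2a1, -1.18 to 0.15 for Sult5a1, -0.22 to 0.089 for Ugt1a9, -3.21 to 0.53 for Gstp3 and -0.26 to 0.051 for Ugt1a7c. Gstm3 also gave -0.13 with library totals, Sult2a1 3.61 with DESeq2 and 0.023 with only the 2 groups compared, and Ugt1a9 0.11 in males. Without control replicate 2 and depleted replicate 4, Sult1d1 gave 0.388 in depleted livers, and after hepatectomy Gstm3 gave -0.06, Ugt1a9 0.07 and Gstp3 0.48. Depth limits members below about 1 CPM.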
